A study of Mus musculus with 30 samples.

Results

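The report follows 34 genes of cholesterol and fatty acid synthesis, chosen by name, in naive mouse embryonic stem cells. All 34 were found among the 12428 genes of the deposited table, and all 34 passed the filter on low values that left 12414 genes for testing. They comprised 8 enzymes of the mevalonate pathway, 11 enzymes from squalene to sterols, 5 regulators, 3 cholesterol transport genes and 7 genes of fatty acid synthesis. No member was at 0 in any of the 30 libraries, and the lowest value was 0.416 CPM (a library's reads on the gene, scaled to the same total over the table's genes in every library), for Tm7sf2. Summed over the members, the level ran from 1734 to 2354 CPM per library.

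The cells came from a C57BL/6J x 129 cross and grew with serum, LIF and inhibitors of MEK and GSK3, and RNA was read from tags near the 3′ end of each transcript. Every line lacked Kmt2c, which encodes an enhancer histone methyltransferase, and the 10 groups held 3 libraries each. Kmt2c-KO cells with floxed Kmt2d (spelled "Kmtd fl/fl" in the labels) expressed GRHL2-ERT and were sampled 8 h or 16 h after adding tamoxifen or its solvent ethanol. Cells that also lacked Kmt2d, called double-KO here, expressed GRHL2-ERT and had the same treatments. The third line, Kmt2c-KO with floxed Kmt2d but lacking GRHL2-ERT, was given tamoxifen alone, at both times. GRHL2 is an epithelial transcription factor, and ERT is an oestrogen receptor domain that lets tamoxifen bring a fused protein into the nucleus. The study asked how the response to GRHL2 differs between lines with and without Kmt2d. The labels describe the GRHL2-ERT lines as clones picked for similar GRHL2 levels, and no libraries of ethanol-treated cells without GRHL2-ERT were analysed here. Within the GRHL2-ERT lines, a response to nuclear GRHL2 and a response to tamoxifen itself cannot be told apart. The labels number the replicates without saying that they were separate cultures, so each p-value measures the spread between these libraries only.

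Cells make cholesterol from acetyl-CoA through mevalonate, isoprenoids, squalene and lanosterol. When membrane sterol falls, the escort protein SCAP carries the precursor of SREBP2 from the endoplasmic reticulum to the Golgi, where it is cut, and the freed factor raises transcription of nearly every enzyme of the route. INSIG proteins hold SCAP back when sterol is plentiful, and SREBP1 drives the fatty acid enzymes in a related way. Proliferating stem cells use both routes to build membrane, and tamoxifen is known as an inhibitor of late steps of sterol synthesis that involve the sterol isomerase EBP and its binding partners.

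Promoter sequences are shown for 4 genes that rose with tamoxifen at 8 h in the Kmt2c-KO line. They were picked because, among the called members matched in RefSeq, they held the most different motifs of those searched. The motifs they show therefore reflect that choice and are no trait of the genes that rose. Elovl6, also called higher and matched, held none of the motifs searched. Each is 300 bases long, 250 before and 50 after the RefSeq start, 5′ to 3′ on the gene's strand, on GRCm38.p6. Capitals mark the CCAAT box (CCAAT) and the GC box (GGGCGG) on either strand, and no match overlapped another.
Msmo1, chr8:64733529-64733828, minus strand: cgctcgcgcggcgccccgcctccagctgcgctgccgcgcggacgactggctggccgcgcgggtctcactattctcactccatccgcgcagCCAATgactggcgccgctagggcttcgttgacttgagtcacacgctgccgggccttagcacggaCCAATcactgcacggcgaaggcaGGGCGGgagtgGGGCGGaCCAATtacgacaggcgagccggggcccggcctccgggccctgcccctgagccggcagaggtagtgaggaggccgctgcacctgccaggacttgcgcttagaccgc
Sc5d, chr9:42264251-42264550, minus strand: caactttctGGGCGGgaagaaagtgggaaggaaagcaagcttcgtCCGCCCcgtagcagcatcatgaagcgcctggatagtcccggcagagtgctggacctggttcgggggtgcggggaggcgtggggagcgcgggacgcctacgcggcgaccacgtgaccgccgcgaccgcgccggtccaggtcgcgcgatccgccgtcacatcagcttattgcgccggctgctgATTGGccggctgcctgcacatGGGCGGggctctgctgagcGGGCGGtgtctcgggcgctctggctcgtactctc
Cyp51, chr5:4104648-4104947, minus strand: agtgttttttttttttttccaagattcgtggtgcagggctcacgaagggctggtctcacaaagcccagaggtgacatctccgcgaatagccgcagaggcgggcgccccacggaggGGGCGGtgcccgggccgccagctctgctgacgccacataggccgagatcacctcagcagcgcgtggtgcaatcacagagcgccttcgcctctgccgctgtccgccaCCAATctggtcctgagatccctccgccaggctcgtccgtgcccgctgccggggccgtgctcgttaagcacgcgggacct
Tm7sf2, chr19:6067801-6068100, minus strand: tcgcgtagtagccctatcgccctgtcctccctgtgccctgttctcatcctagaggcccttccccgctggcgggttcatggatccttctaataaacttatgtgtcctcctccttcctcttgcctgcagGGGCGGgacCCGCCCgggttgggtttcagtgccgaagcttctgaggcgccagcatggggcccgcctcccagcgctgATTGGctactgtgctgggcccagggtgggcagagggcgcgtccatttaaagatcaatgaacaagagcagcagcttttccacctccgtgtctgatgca
The RefSeq table matched 27 of the 34 members. A CCAAT box lay in a promoter of 23 of the 27 (85.2%), against 41.1% of all 27025 genes in the RefSeq table. Those genes were not limited to expressed ones, as all members were, and the share among expressed genes was not computed. The shares of all genes below have the same limit. The GC box lay in 22 of 27 (81.5%), against 38.2% of all genes. The sterol regulatory element TCACNCCAC, searched on both strands, lay in 1 of 27 (3.70%), against 1.44% of all genes. That match was TCACCCCAC in Hmgcs1, at -137 from the start site. The GRHL site AACCNGTT lay in 0 of 27, against 2.35% of all genes. These matches describe letters in a short window, and a missing match says nothing of the factor.

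Depth ran from 8.86 to 22.1 M reads per library, with a median of 16.2 M, and a floor of 3 reads stood for 0.136 to 0.339 CPM. The 10 naive stem cell markers summed to at least 5175 CPM in every library. Grhl2 read 39.1, 32.4 and 52.2 CPM in the ethanol libraries of the double-KO line at 8 h and 210.4, 158 and 165 CPM in those of the Kmt2c-KO GRHL2-ERT line. Without GRHL2-ERT it stayed at or below 3.55 CPM. Kmt2c tags were present in every library, between 9.47 and 32.8 CPM, and Kmt2d tags between 5.77 and 23.4 CPM. The labels do not place the deletions, and a 3′ tag outside a deleted part checks nothing. Of the libraries, 3 correlated less with the rest of their group by more than 0.008 in Pearson's r across genes. These were double-KO ethanol 8 h replicate 3, double-KO tamoxifen 8 h replicate 2 and double-KO tamoxifen 16 h replicate 2. The second of these had the lowest depth, 8.86 M reads, and 7.37% of its reads on the ribosomal RNA precursor Rn45s, where the median library had 2.85%.

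In Kmt2c-KO cells with GRHL2-ERT, 8 h of tamoxifen raised 7 of the 34 members and lowered 0. Across all tested genes 4.95% were called, 2.92% higher and 2.04% lower. The 7 were 4 enzymes that process lanosterol into cholesterol (Msmo1, Sc5d, Cyp51 and Tm7sf2), the isoprenoid synthase Fdps, the sterol carrier Stard4 and the fatty acid elongase Elovl6. The median log2 fold change over the members was 0.32, against 0.03 over all tested genes, and 29 of 34 lay above 0. Calls were made in limma on the log2(CPM + 1) scale, with p-values adjusted over all tested genes by the Benjamini-Hochberg method and a threshold of 0.05, and a value after ± is the SE. In 12 members every tamoxifen library lay above every ethanol library, a separation that 13.0% of all genes showed. In 2 members, Acaca and Fasn, every tamoxifen library lay below, as in 11.4% of all genes.

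Msmo1, the methylsterol monooxygenase that starts removal of the C4 methyl groups, read 65.4, 66.4 and 60.6 CPM in ethanol and 99.9, 98.8 and 104 CPM in tamoxifen. Its log2 fold change was 0.65 ± 0.11, adjusted p = 0.00026. Sc5d, the desaturase that makes 7-dehydrocholesterol, read 7.32, 9.06 and 5.84 CPM in ethanol and 17.4, 18.8 and 15.2 CPM in tamoxifen. The groups lay well apart, and the log2 fold change was 1.12 ± 0.19, adjusted p = 0.00029. Cyp51, the lanosterol demethylase, went from 61.1, 63.6 and 66.7 CPM to 79.6, 82.3 and 89.5 CPM. The difference was smaller, at 0.39 ± 0.11, adjusted p = 0.037. Tm7sf2, a sterol reductase that acts after Cyp51, was scarce in ethanol, at 0.416, 0.918 and 2.19 CPM. In tamoxifen it read 2.62, 3.32 and 3.32 CPM, with a log2 fold change of 0.99 ± 0.29, adjusted p = 0.042. Exons of Tm7sf2 overlap those of Vps51 on the same strand and exons of Cyp51 overlap those of Akap9 on the other strand. Strand cannot separate Tm7sf2 from Vps51. For Cyp51 it could, but whether the counting used strand is not given in the sources used here. Both genes are therefore uncertain. The limit of Cyp51 holds wherever Srebf1, Me1, Fdft1 and Ggps1 are reported. Their exons overlap those of Rai1, A330041J22Rik, Ctsb and Arid4b, in that order, on the other strand. Further members overlap genes that are not in the deposited table. These are Fdps, with Gm43738 on the same strand, and Elovl6, Hmgcs1, Idi1, Lss, Npc1 and Scap, with genes on the other strand. Scd2 and Srebf1 also overlap microRNA genes on the same strand.

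The other 7 enzymes of the sterol branch were not called. Dhcr7, which makes cholesterol from 7-dehydrocholesterol, stood at 0.48 ± 0.16, Lss at 0.37 ± 0.21, Nsdhl at 0.35 ± 0.19, Fdft1 at 0.34 ± 0.14, Hsd17b7 at 0.32 ± 0.19 and Sqle at 0.06 ± 0.10 on the log2 scale. Ebp, the isomerase of the late pathway, read 118, 119 and 113 CPM in ethanol and 113, 101 and 114 CPM in tamoxifen, groups that overlapped, at -0.09 ± 0.13, adjusted p = 0.75. Among the 8 mevalonate enzymes Fdps alone was called. Fdps, which makes farnesyl diphosphate, rose from 83.8, 91.5 and 96.5 CPM to 126, 109 and 133 CPM, at 0.43 ± 0.11, adjusted p = 0.02. Hmgcs1, which condenses acetoacetyl-CoA into HMG-CoA, read 212, 267 and 235 CPM in ethanol. In tamoxifen Hmgcs1 read 297, 289.8 and 292 CPM, above every ethanol library, but at 0.30 ± 0.10, adjusted p = 0.099 it was not called. The rest of the mevalonate enzymes ranged from -0.01 for Acat2 to 0.39 for Mvk.

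None of the 5 regulators was called. Srebf2, which encodes SREBP2, read 10.4, 14.9 and 11.3 CPM in ethanol and 21.2, 22.5 and 18.6 CPM in tamoxifen without overlap, at 0.73 ± 0.39, adjusted p = 0.33. Srebf1 was low and scattered, at 1.01, 2.08 and 1.78 CPM in ethanol and 3.61, 3.38 and 0.692 CPM in tamoxifen. Insig1, itself a target of SREBP, read 29.5, 27.3 and 43.2 CPM in ethanol and 41.5, 41.8 and 39.8 CPM in tamoxifen, with the highest library in ethanol. Insig2 read 8.33, 12.4 and 8.43 against 11.8, 10.3 and 8.95 CPM, and Scap 10.8, 15.0 and 9.00 against 14.1, 12.9 and 11.4 CPM. Both pairs of groups overlapped. Stard4, which carries cholesterol between membranes, was the 1 called gene of the 3 in transport, at 10.5, 12.7 and 12.8 CPM in ethanol and 18.4, 18.8 and 17.8 CPM in tamoxifen. Its log2 fold change was 0.58 ± 0.17, adjusted p = 0.043.

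Of the 7 fatty acid genes 1 was called, higher, and 0 lower. Elovl6, which lengthens palmitate, went from 119, 164 and 143 CPM to 225, 230.4 and 197 CPM, at 0.62 ± 0.13, adjusted p = 0.0025. Fasn, the synthase that makes palmitate, lay lower in every tamoxifen library, at 92.3, 114 and 129 CPM against 169.8, 154 and 145 CPM. With -0.49 ± 0.19, adjusted p = 0.16, Fasn was not called. Acaca, the carboxylase before it, stood at -0.32 ± 0.16, adjusted p = 0.31. The desaturase genes did not separate the groups. Scd1 read 21.7, 31.9 and 23.6 CPM in ethanol and 22.4, 20.5 and 24.1 CPM in tamoxifen, and Scd2 71.0, 157 and 115 against 121, 128 and 115 CPM. Acly stood at 0.20 ± 0.11 and Me1 at 0.35 ± 0.14.

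**Figure D1:**
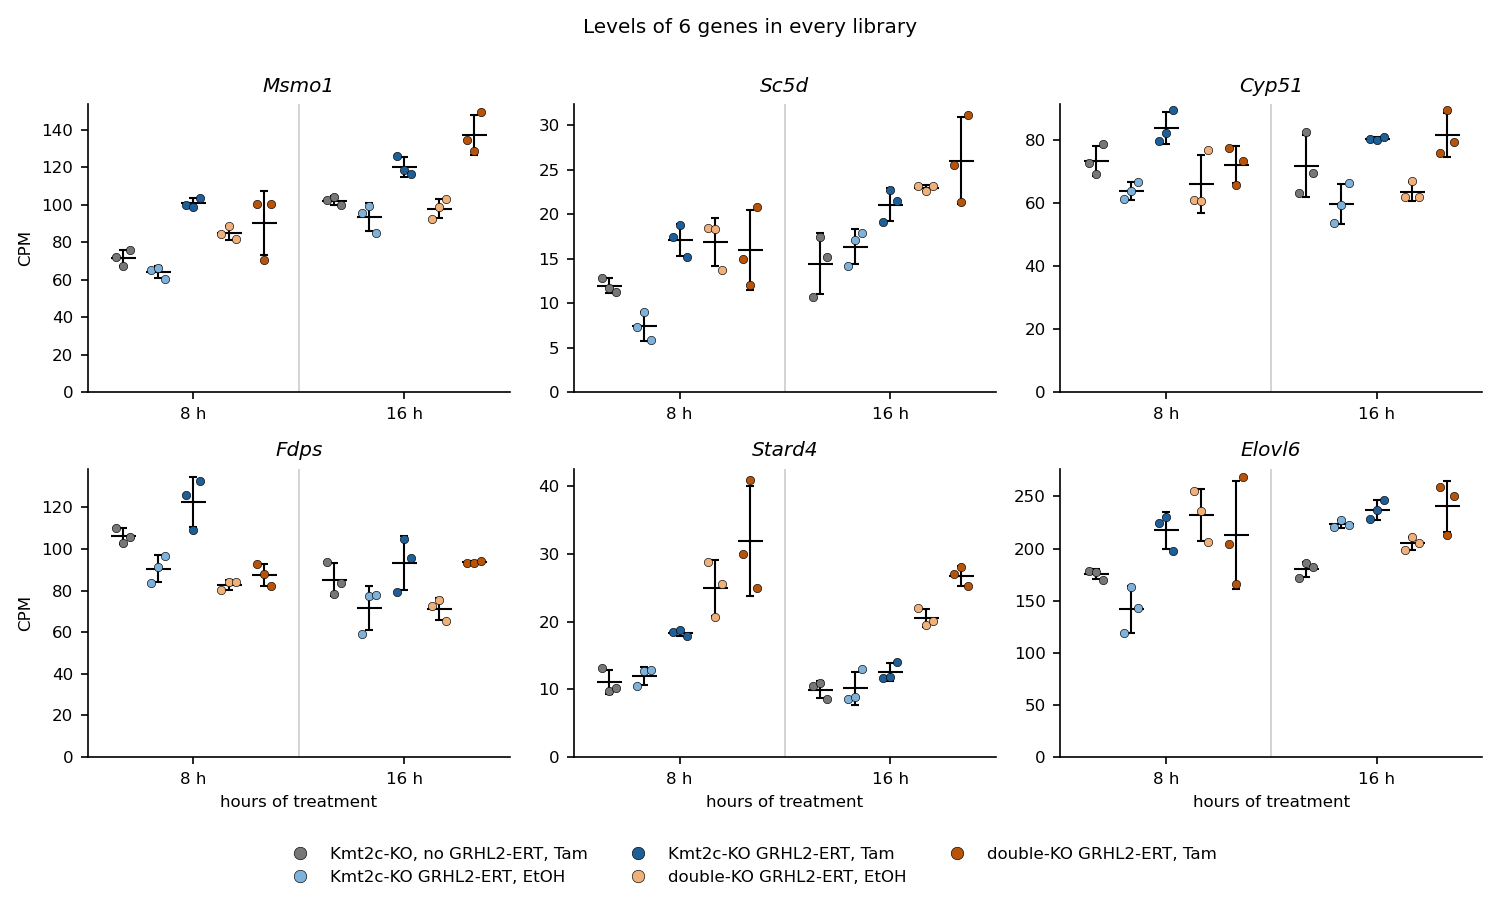
Level in CPM (vertical axis, from 0) of 6 genes in every library, by hours of treatment and group. Points are single libraries and bars the mean ± SD of 3. At 8 h the Kmt2c-KO GRHL2-ERT tamoxifen libraries of Msmo1 (98.8 to 104 CPM) all lie above the ethanol libraries (60.6 to 66.4 CPM), and the double-KO tamoxifen libraries spread from 70.5 to 100.4 CPM.

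Only 3 of the 7 calls, Msmo1, Sc5d and Elovl6, were kept under all of the alternatives run. Leaving out any 1 of the 6 libraries ended the calls of Cyp51 (adjusted p 0.061 to 0.14) and Stard4 (0.061 to 0.19). Tm7sf2 was lost without any 1 library other than ethanol replicate 3 (0.072 to 0.25), and Fdps without ethanol replicate 1 (0.11), tamoxifen replicate 1 (0.084) or tamoxifen replicate 3 (0.11). Median-of-ratios scaling ended the calls of Cyp51 (0.076) and Stard4 (0.072). The number of members called was 3 without ethanol replicate 1, tamoxifen replicate 1 or tamoxifen replicate 3, and 4 without tamoxifen replicate 2. With the 3 libraries that stood apart left out of the fit, 10 members were called, where 12.6% of all genes were, and Fasn was then lower at an adjusted p of 0.0055. Other values moved with the treatment. Of the 10 naive markers, 3 were lower in tamoxifen (Sox2, Zfp42 and Klf4), but the sum of all 10 overlapped. It ran from 8323 to 10005 CPM in ethanol and from 9125 to 10370 CPM in tamoxifen. Rn45s took 5.39%, 4.02% and 7.40% of reads in ethanol and 3.47%, 3.10% and 3.29% in tamoxifen. Their part in the result was not tested.

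The lists of related genes gave counts for the same comparison. None of 18 other sterol pathway genes was called, with 13 above 0 and a median log2 fold change of 0.07. None of 15 genes of cholesterol efflux, uptake and esterification was called, at a median of 0.19. Of 26 other fatty acid and lipid synthesis genes, 3 were higher and 0 lower. These were the acyl-CoA synthetase Acsl5 (2.33 ± 0.21, adjusted p = 1.8e-08), the glucose-6-phosphate dehydrogenase G6pdx (0.80 ± 0.16, adjusted p = 0.0018) and the elongase Elovl1 (1.19 ± 0.23, adjusted p = 0.002). Of 22 fatty acid oxidation genes 3 were higher (Acadl, Acadvl and Eci1) and 0 lower, all at the same background of 4.95%.

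After 16 h of tamoxifen no member was called in the Kmt2c-KO line, where 0.298% of all genes were (0.290% higher and 0.00806% lower). At an unadjusted p under 0.05, 7 members passed, as did 4.81% of all genes. The members still leaned one way: 27 of 34 lay above 0, with a median of 0.11 against -0.02 over all tested genes. In 11 members every tamoxifen library lay above every ethanol library, against 7.20% of all genes, and in 0 members below, against 9.13%. The 11 were Hmgcs1, Fdps, Fdft1, Sqle, Cyp51, Msmo1, Sc5d, Insig1, Scap, Acly and Elovl6. Cyp51 read 53.6, 59.4 and 66.2 CPM in ethanol and 80.3, 79.9 and 80.9 CPM in tamoxifen, at 0.43 ± 0.11, adjusted p = 0.13. Msmo1 read 95.7, 99.4 and 85.0 CPM in ethanol and 126, 118 and 116 CPM in tamoxifen, at 0.36 ± 0.11, adjusted p = 0.25. For Hmgcs1 the values were 218, 214 and 215 CPM and 261, 283 and 275 CPM, at 0.34 ± 0.10, adjusted p = 0.32. Sc5d read 14.2, 17.1 and 17.8 CPM in ethanol, about the level that tamoxifen libraries had at 8 h, and 19.1, 22.7 and 21.5 CPM in tamoxifen. Its difference was 0.35 ± 0.19, adjusted p = 1. Fdps stood at 0.38 ± 0.11, Stard4 at 0.30 ± 0.17, Elovl6 at 0.08 ± 0.13 and Tm7sf2 at 0.06 ± 0.29. Of the regulators, Insig1 read 25.4, 25.6 and 22.4 CPM in ethanol and 25.8, 27.9 and 34.8 CPM in tamoxifen, and Srebf2 9.57, 10.5 and 10.7 against 6.45, 11.6 and 11.3 CPM. The count depends on how libraries are weighed: it was 6 with gene-by-gene array weights (1.64% of all genes), 5 in a fit of these 6 libraries alone (1.19%) and 3 without the libraries that stood apart (0.532%), namely Hmgcs1, Cyp51 and Msmo1, all higher. The change of the tamoxifen response from 8 h to 16 h was called for 0 members, where 0.0644% of all genes were called (0.0161% higher and 0.0483% lower). At an unadjusted p under 0.05, 3 members and 6.36% of all genes passed. Among the related lists Acsl5 alone was called at 16 h (1.83 ± 0.21, adjusted p = 1.4e-05).

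In double-KO cells with GRHL2-ERT, 8 h of tamoxifen gave 0 called members, where 0.0967% of all genes were called (0.0644% higher and 0.0322% lower). The median over the members was -0.06, against -0.07 over all tested genes, and 15 of 34 lay above 0. At an unadjusted p under 0.05, 6 members passed, as did 20.3% of all genes. The groups were separated upward in 1 member, Pmvk (3.83% of all genes), and downward in 2, Mvk and Lss (5.15%). Without the libraries that stood apart, which leaves 2 against 2, it was 8 upward (14.8% of all genes) and 7 downward (20.4%). Msmo1 read 84.6, 88.8 and 81.7 CPM in ethanol and 100.2, 70.5 and 100.4 CPM in tamoxifen, at 0.07 ± 0.11, adjusted p = 0.74. Sc5d read 18.4, 18.4 and 13.7 CPM in ethanol and 14.9, 12.1 and 20.8 CPM in tamoxifen. In ethanol 2 of these Sc5d libraries already lay at the level of the Kmt2c-KO tamoxifen libraries. Elovl6 read 255, 236 and 206 CPM and 204, 166 and 269 CPM, with overlapping groups. The tamoxifen libraries differed among themselves: replicate 2, which stood apart, was the lowest of 3 for Msmo1, Sc5d, Elovl6, Hmgcs1 (203, 141 and 204 CPM), Scap (18.8, 9.48 and 23.6 CPM) and Scd2 (238, 95.5 and 347 CPM). The same library was the highest for Mvd (25.2, 64.2 and 22.0 CPM) and Fasn (97.6, 187 and 78.4 CPM). Without tamoxifen replicate 3 the count was 7, with 3 higher and 4 lower, but 25.3% of all genes were then called as well. Array weights gave 1, lower (3.59% of all genes). Without the libraries that stood apart it was again 0.

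After 16 h in the double-KO line no member was called, where 0.0403% of all genes were (0.0322% higher and 0.00806% lower), and 10 members passed at an unadjusted p under 0.05, as did 4.18% of all genes. In 16 of 34 members every tamoxifen library lay above every ethanol library, against 7.45% of all genes, and in 0 members below, against 5.97%. By role these were 5 of 8 mevalonate enzymes, 5 of 11 sterol enzymes, 1 of 5 regulators, 2 of 3 transport genes and 3 of 7 fatty acid genes. The median over the members was 0.22, against -0.00 over all genes, with 26 above 0. Msmo1 read 92.6, 98.8 and 103 CPM in ethanol and 135, 129 and 149 CPM in tamoxifen, at 0.48 ± 0.11, adjusted p = 0.11. Hmgcs1 read 188, 183 and 185 CPM and 239.8, 248 and 252 CPM, at 0.41 ± 0.10, adjusted p = 0.28. Fdps read 72.6, 75.4 and 65.2 CPM and 93.4, 93.2 and 94.4 CPM, at 0.40 ± 0.11, adjusted p = 0.41. Cyp51, with 61.9, 67.0 and 61.8 CPM in ethanol, reached 75.9, 89.4 and 79.1 CPM. Stard4 read 22.0, 19.4 and 20.1 CPM and 27.0, 28.0 and 25.2 CPM, and Elovl6 198, 211 and 205 CPM and 259, 213 and 250.2 CPM. Srebf1 overlapped, at 18.0, 18.7 and 15.8 CPM and 16.7, 6.16 and 23.4 CPM. Idi1, the isopentenyl isomerase, read 78.9, 84.2 and 74.5 CPM in ethanol and 105, 12.3 and 84.5 CPM in tamoxifen, and the low library is replicate 2, which stood apart. On the median-of-ratios scale 14 members separated upward (6.55% of all genes), and without that library 21 did (12.8%). Array weights gave 5 called members, all higher (0.854% of all genes called), and leaving out the libraries that stood apart gave 2, Msmo1 and Hmgcs1 (0.0806%). The change of the response from 8 h to 16 h was called for 0 members in limma and 0 genes in all, and 8 members passed at an unadjusted p under 0.05, as did 5.75% of all genes. None of the genes in the 4 related lists was called at either time in this line.

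**Figure D2:**
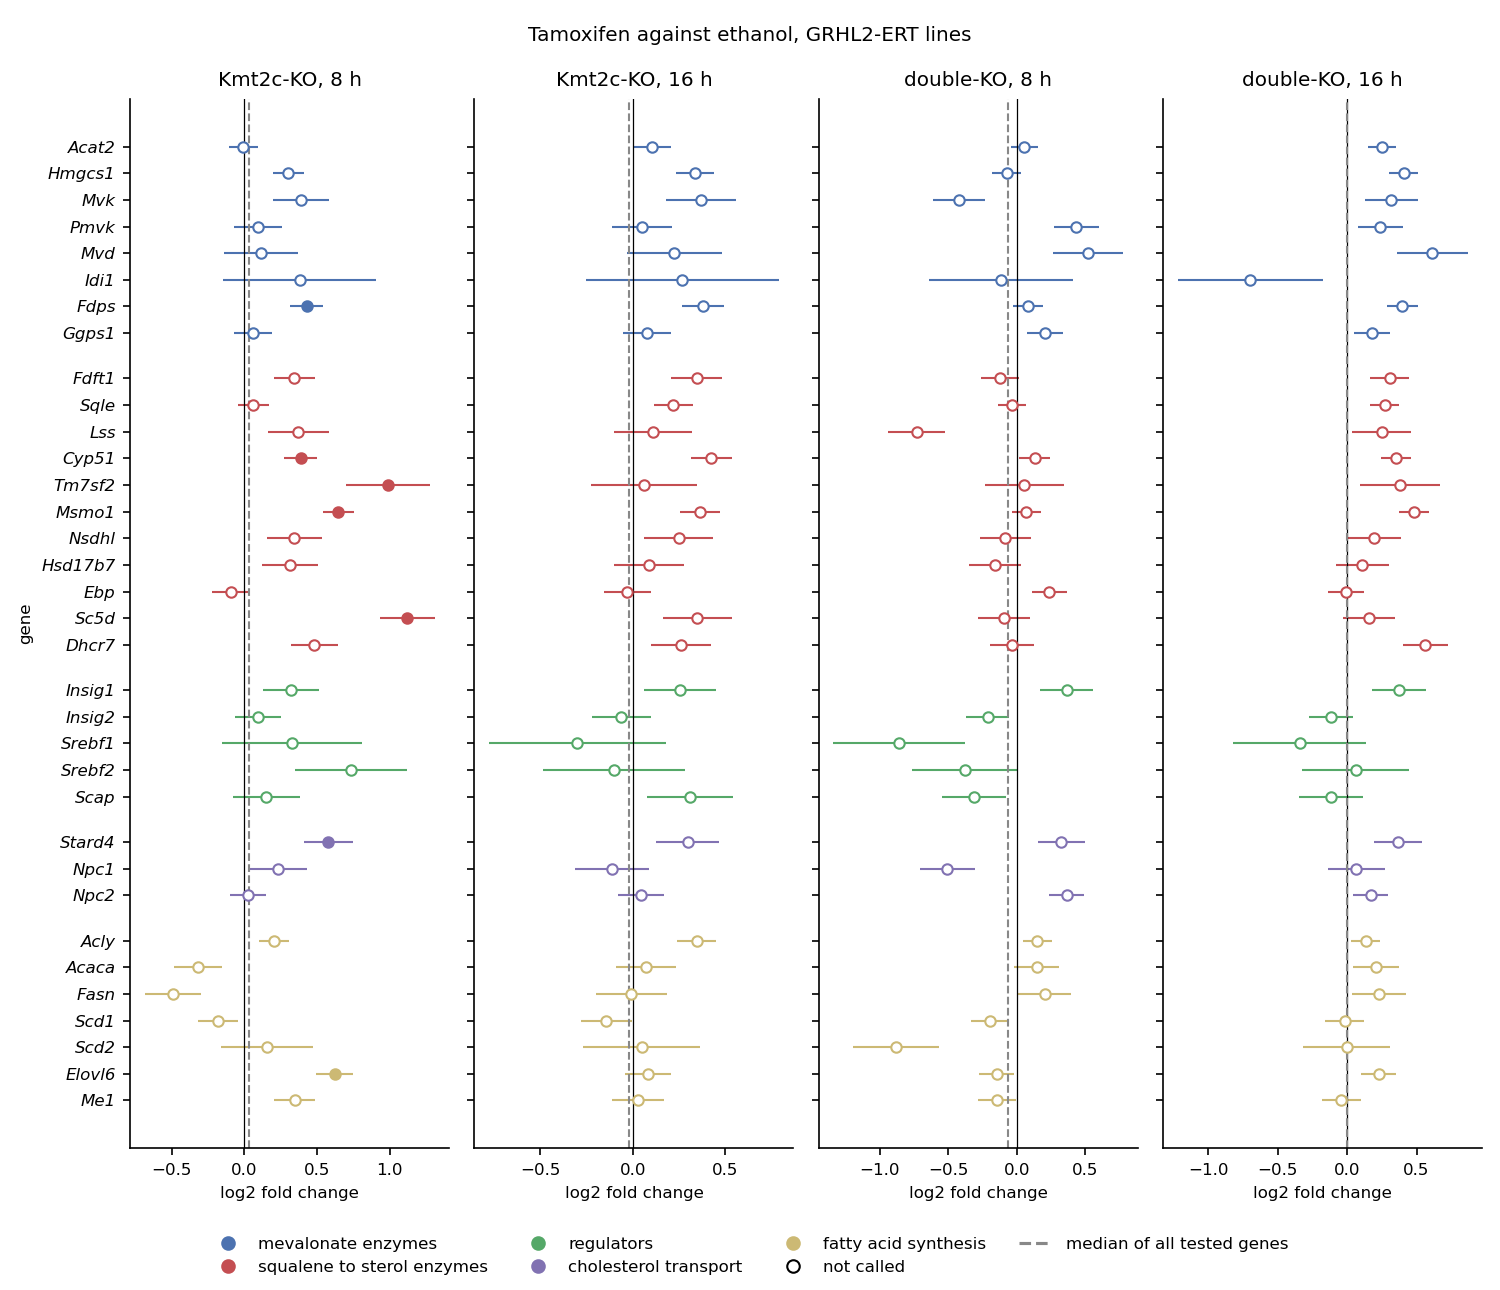
Log2 fold change of tamoxifen against ethanol (horizontal axis, on log2(CPM + 1), bars are the SE) for the 34 members by role (vertical axis), in each GRHL2-ERT line and time. Filled points were called and open points were not, and the dashed line is the median of all tested genes. The 7 filled points all lie in the Kmt2c-KO panel at 8 h, and both 16 h panels show most sterol enzymes to the right of 0.

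The responses of the lines were compared with each other directly. At 8 h the double-KO response was lower than the Kmt2c-KO response for 3 members, where 1.43% of all genes were called (0.524% higher and 0.902% lower). These were Sc5d (-1.22 ± 0.26, adjusted p = 0.018), Elovl6 (-0.77 ± 0.18, adjusted p = 0.026) and Msmo1 (-0.58 ± 0.15, adjusted p = 0.049). Across the members the median difference was -0.40, against -0.10 over all genes, and 9 of 34 lay above 0. The differences among the regulators were not called, with Srebf2 at -1.11 ± 0.55, Srebf1 at -1.19 ± 0.68, Scap at -0.47 ± 0.33, Insig2 at -0.31 ± 0.23 and Insig1 at 0.04 ± 0.27. These calls rest on few libraries. None of the 3 was called in a fit of these libraries alone (adjusted p 0.40 for Sc5d, 0.44 for Elovl6 and 0.44 for Msmo1), while all 3 were kept with array weights, under which 5 members were called, all lower, and 10.6% of all genes. Msmo1 was also lost on the median-of-ratios scale (0.07) and with a pseudocount of 0.1 (0.052). Sc5d was lost without Kmt2c-KO ethanol replicate 3 (0.051), Kmt2c-KO tamoxifen replicate 2 (0.064), double-KO ethanol replicate 1 (0.058) or double-KO ethanol replicate 2 (0.056). Elovl6 was lost without replicate 1 of any of 3 groups, Kmt2c-KO ethanol (0.10), Kmt2c-KO tamoxifen (0.069) and double-KO ethanol (0.087), without Kmt2c-KO tamoxifen replicate 2 (0.084) or without double-KO ethanol replicate 2 (0.069). Msmo1 was lost without any of 8 of the 12 libraries (0.075 to 0.12). The count of called members was 0 without Kmt2c-KO tamoxifen replicate 2, double-KO ethanol replicate 1 or double-KO ethanol replicate 2, and 1 without Kmt2c-KO ethanol replicate 1, Kmt2c-KO ethanol replicate 3 or Kmt2c-KO tamoxifen replicate 1. It was 5 without Kmt2c-KO ethanol replicate 2 (4.91% of all genes called) and 14 without double-KO tamoxifen replicate 3 (24.9%). Without the libraries that stood apart the 3 genes were called again, at -1.18 ± 0.26 for Sc5d, -0.69 ± 0.14 for Elovl6 and -0.44 ± 0.13 for Msmo1, with 4.16% of all genes. In ethanol at 8 h the 3 genes were already called higher in the double-KO line than in the Kmt2c-KO line. Over the alternatives run, that log2 fold change was 0.80 to 1.23 for Sc5d, 0.40 to 0.82 for Elovl6 and 0.09 to 0.43 for Msmo1. Msmo1 lost that call on the median-of-ratios scale (0.5). Grhl2 was lower in the double-KO line in ethanol at 8 h (log2 fold change -2.10 ± 0.25, adjusted p = 1.5e-07). The part of these ethanol levels in the difference was not tested. At 16 h the difference between responses was called in limma for 0 members and 0 of all genes, with 0 members and 2.54% of all genes at an unadjusted p under 0.05.

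Cells without GRHL2-ERT give a second reference for tamoxifen in the Kmt2c-KO background. With both in tamoxifen for 8 h, GRHL2-ERT cells were higher for 2 members, Msmo1 and Stard4, and lower for 0, where 4.07% of all genes were called (2.67% higher and 1.39% lower). Msmo1 read 72.4, 67.3 and 75.7 CPM without GRHL2-ERT, below each GRHL2-ERT tamoxifen library, at 0.49 ± 0.11, adjusted p = 0.0055. Stard4 read 13.1, 9.79 and 10.2 CPM without it, at 0.69 ± 0.17, adjusted p = 0.014. In 13 members every GRHL2-ERT library lay higher, against 12.5% of all genes, and in 1, Ebp, lower, against 11.8%. Ebp read 142, 166 and 133 CPM without GRHL2-ERT, at -0.42 ± 0.13, adjusted p = 0.062. The call of Stard4 was lost without replicate 2 (0.082) or replicate 3 (0.067) of the cells lacking GRHL2-ERT, or without replicate 1 (0.051) or replicate 2 (0.062) of the GRHL2-ERT cells. The count was 1 without replicate 2 or 3 of the former or replicate 2 of the latter. It rose to 7 with array weights (8.97% of all genes), to 6 in a fit of these libraries alone (7.87%) and to 6 without the libraries that stood apart (7.49%), and in each of these 1 of the called members was lower. In the same comparison 4 of 10 naive markers were lower in GRHL2-ERT cells (Sox2, Zfp42, Klf4 and Tdh), but the sum of all 10 overlapped. It ran from 9125 to 10370 CPM with GRHL2-ERT and from 9328 to 9868 CPM without it. The trophoblast keratin Krt7 was higher in GRHL2-ERT cells (1.28 ± 0.24, adjusted p = 0.00096). The summed trophoblast markers were 110.4 to 119 CPM with GRHL2-ERT and 89.9 to 109.9 CPM without it. Kmt2c tags were also higher (0.73 ± 0.16, adjusted p = 0.0053), and the part of these differences was not tested. At 16 h no member was called (0.975% of all genes, 0.644% higher and 0.330% lower), with 4 at an unadjusted p under 0.05 (8.67% of all genes) and 6 separated upward (9.60%) and 2 downward (9.06%).

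Sc5d fell between the other groups when GRHL2-ERT was absent. At 8 h it read 12.9, 11.8 and 11.3 CPM in tamoxifen without GRHL2-ERT, above all ethanol libraries with GRHL2-ERT and below all tamoxifen libraries with it. Elovl6 had the same order, at 179, 178 and 169.7 CPM without GRHL2-ERT. Tested against ethanol-treated GRHL2-ERT cells, tamoxifen without GRHL2-ERT gave 0 called members at 8 h, where 0.105% of all genes were called (0.0242% higher and 0.0806% lower), with 4 at an unadjusted p under 0.05 (9.18% of all genes). Sc5d stood at 0.64 ± 0.19, adjusted p = 0.27 and Elovl6 at 0.32 ± 0.13, adjusted p = 0.44, and Sc5d was called without the libraries that stood apart (adjusted p 0.039), in a fit that called 1.41% of all genes. Upward separation was seen in 10 members (8.56% of all genes), namely Idi1, Fdps, Fdft1, Cyp51, Msmo1, Ebp, Sc5d, Dhcr7, Srebf1 and Elovl6, and in 7 on the median-of-ratios scale (8.05%). Downward separation was seen in 1, Fasn (7.46%). Those cells differ from the ethanol group in both the transgene and the agent. At 16 h the same comparison called 0 members (0.169% of all genes, 0.0967% higher and 0.0725% lower), with 3 at an unadjusted p under 0.05 (6.81% of all genes), and array weights gave 1, lower (1.75% of all genes called).

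The lines differed more from each other than ethanol from tamoxifen. In ethanol at 8 h, 14 members were higher and 6 lower in double-KO cells, and 49.4% of all genes were called, 37.6% higher and 11.9% lower. At 16 h, 14 were higher and 2 lower, with 50.0% of all genes called, 40.0% higher and 9.96% lower. Members called at a rate near that of all genes, and their median (0.35 at 8 h and 0.32 at 16 h) was near the shift of all genes (0.31 and 0.35). That shift depends on the scale: median-of-ratios scaling brought the median of all genes to 0.03 at 8 h and 0.02 at 16 h, and the members then split 10 higher and 10 lower at 8 h and 9 higher and 10 lower at 16 h. On that scale 20.9% of all genes were higher and 21.3% lower at 8 h, and 20.7% higher and 20.8% lower at 16 h. Both scales called 10 genes higher at 8 h (Hsd17b7, Sc5d, Dhcr7, Insig2, Srebf1, Stard4, Scd1, Scd2, Elovl6 and Me1) and 6 lower (Acat2, Hmgcs1, Sqle, Ebp, Npc2 and Fasn). At 16 h both called 9 higher (Hsd17b7, Insig2, Scap, Stard4, Npc1, Acaca, Scd1, Scd2 and Me1) and 2 lower (Acat2 and Npc2). The share of all genes called by both scales was not computed, so these counts show which calls do not depend on the scale and no more.

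The stearoyl-CoA desaturases, which put the double bond into saturated fatty acids, were high in the double-KO line. Scd1 read 21.7, 31.9 and 23.6 CPM in Kmt2c-KO and 74.0, 59.1 and 56.3 CPM in double-KO cells at 8 h, at 1.27 ± 0.14, adjusted p = 1.9e-08. At 16 h Scd1 read 25.7, 26.8 and 26.8 CPM and 63.8, 68.0 and 61.4 CPM, at 1.25 ± 0.14, adjusted p = 2.2e-08. Scd2 read 71.0, 157 and 115 CPM and 530.0, 369.9 and 256 CPM at 8 h, at 1.75 ± 0.31, adjusted p = 9.6e-05. By 16 h its groups were tighter, at 95.9, 99.6 and 86.8 CPM and 373, 384 and 320.2 CPM, with 1.92 ± 0.31, adjusted p = 2.9e-05. Neither gene overlapped between the lines at either time. Me1, which supplies NADPH, read 24.9, 41.1 and 28.1 CPM and 62.1, 60.7 and 55.5 CPM at 8 h, at 0.93 ± 0.14, adjusted p = 4.7e-06, and 32.1, 26.3 and 24.7 CPM and 51.7, 55.6 and 52.2 CPM at 16 h, at 0.93 ± 0.14, adjusted p = 4.1e-06. Fasn differed by time. It was lower in double-KO cells at 8 h, at 116, 92.8 and 87.0 against 169.8, 154 and 145 CPM (-0.67 ± 0.19, adjusted p = 0.0061), and at 16 h it read 54.7, 58.8 and 56.2 against 43.6, 47.9 and 42.4 CPM (0.34 ± 0.19, adjusted p = 0.15). The change between times was not tested.

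In the sterol branch Hsd17b7, a ketoreductase of C4 demethylation, was higher in double-KO cells, at 14.7, 15.1 and 12.4 against 5.12, 6.18 and 3.57 CPM at 8 h (1.36 ± 0.19, adjusted p = 1.6e-06). Its values at 16 h were 13.3, 13.2 and 17.2 against 6.59, 4.45 and 4.46 CPM (1.34 ± 0.19, adjusted p = 1.5e-06). Ebp went the other way at 8 h, with 46.1, 69.6 and 53.8 against 118, 119 and 113 CPM (-1.05 ± 0.13, adjusted p = 1.6e-07). At 16 h Ebp read 85.0, 89.3 and 91.9 against 103, 107 and 120.0 CPM (-0.30 ± 0.13, adjusted p = 0.052), and was called lower on the median-of-ratios scale. Acat2, the first thiolase, was lower at both times, at 57.3, 64.0 and 62.1 against 98.9, 87.9 and 95.6 CPM at 8 h (-0.62 ± 0.10, adjusted p = 1.5e-05), and with -0.38 ± 0.10, adjusted p = 0.0027 at 16 h. Hmgcs1 read 197, 183 and 189 against 212, 267 and 235 CPM at 8 h (-0.32 ± 0.10, adjusted p = 0.013) and was lost without Kmt2c-KO ethanol replicate 2 (0.086). Sqle at 8 h, at -0.27 ± 0.10, was lost without any 1 library other than Kmt2c-KO ethanol replicate 2 (0.054 to 0.15). Lss at 8 h, at 0.57 ± 0.21, was lost without Kmt2c-KO replicate 1 (0.10) or 3 (0.053) or double-KO replicate 1 (0.058) or 2 (0.097). At 16 h Sc5d, at 0.47 ± 0.19, was lost without any 1 library other than Kmt2c-KO replicate 3 (0.058 to 0.15), and Mvk, at 0.51 ± 0.19, without Kmt2c-KO replicate 2 (0.09) or 3 (0.06) or double-KO replicate 1 (0.093).

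Some sterol sensing and transport genes were also called between the lines, where 49.4% of all genes were at 8 h and 50.0% at 16 h. Insig2 read 20.6, 19.2 and 18.5 CPM in double-KO against 8.33, 12.4 and 8.43 CPM in Kmt2c-KO cells at 8 h (0.95 ± 0.16, adjusted p = 2e-05), and 29.0, 28.6 and 27.6 against 12.7, 19.9 and 14.5 CPM at 16 h (0.84 ± 0.16, adjusted p = 8.6e-05). Scap read 17.5, 16.7 and 15.8 against 5.33, 6.11 and 5.97 CPM at 16 h (1.38 ± 0.23, adjusted p = 1.7e-05). At 8 h Scap was at 20.7, 22.0 and 18.6 against 10.8, 15.0 and 9.00 CPM (0.79 ± 0.23, adjusted p = 0.0062), a call lost on the median-of-ratios scale (0.066). Srebf1 read 12.5, 11.7 and 4.61 against 1.01, 2.08 and 1.78 CPM at 8 h (1.94 ± 0.48, adjusted p = 0.0019), and the low double-KO library is replicate 3, which stood apart. At 16 h Srebf1 read 18.0, 18.7 and 15.8 against 7.16, 8.18 and 5.90 CPM (1.20 ± 0.48, adjusted p = 0.04), and leaving out any 1 of the 6 libraries lost the call (0.057 to 0.11). Insig1 was not called at 8 h (37.5, 27.2 and 18.1 against 29.5, 27.3 and 43.2 CPM) or 16 h, nor was Srebf2 (24.4, 17.9 and 16.9 against 10.4, 14.9 and 11.3 CPM at 8 h). Stard4 read 28.8, 20.6 and 25.6 against 10.5, 12.7 and 12.8 CPM at 8 h (0.99 ± 0.17, adjusted p = 2.6e-05), and at 16 h 22.0, 19.4 and 20.1 against 8.56, 8.89 and 12.9 CPM (0.97 ± 0.17, adjusted p = 3e-05). Npc2, a soluble cholesterol carrier of the lysosome, was lower, at 138, 125 and 144 against 307, 255 and 271 CPM at 8 h (-1.03 ± 0.13, adjusted p = 1.6e-07) and 107, 107 and 119 against 259, 232 and 245 CPM at 16 h (-1.14 ± 0.13, adjusted p = 2.3e-08). Its membrane partner Npc1 was higher at 8 h (0.66 ± 0.20, adjusted p = 0.0081) and 16 h (0.96 ± 0.20, adjusted p = 0.00027). The 8 h call of Npc1 was lost without Kmt2c-KO replicate 3 (0.068) or double-KO replicate 1 (0.094), and on the median-of-ratios scale (0.12).

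**Figure D3:**
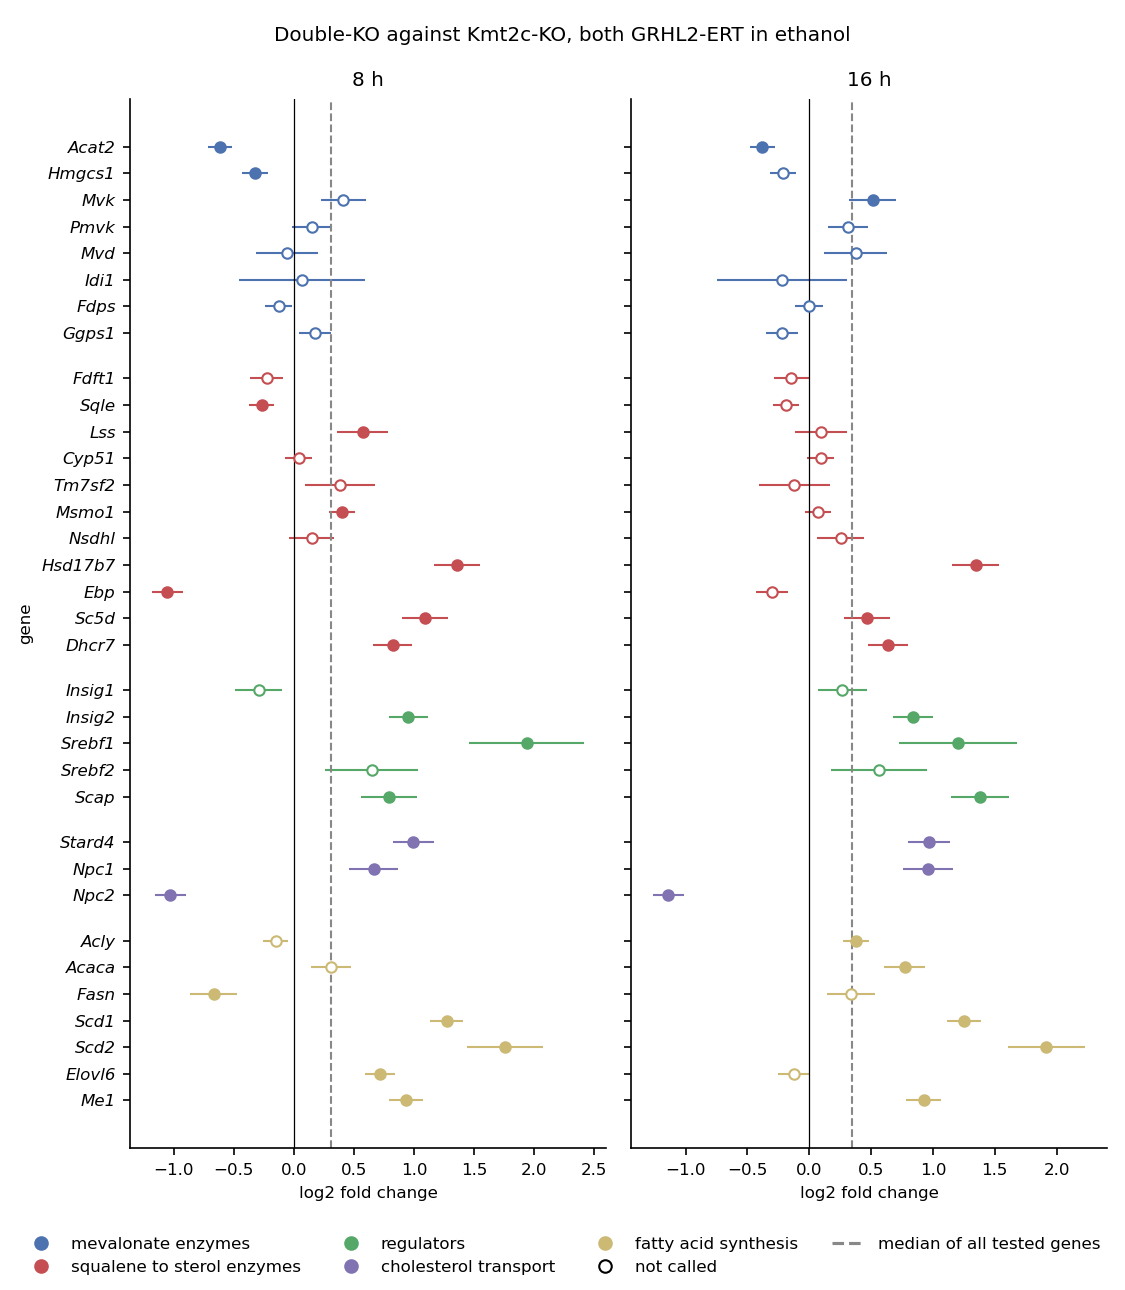
Log2 fold change of double-KO against Kmt2c-KO cells (horizontal axis, on log2(CPM + 1), bars are the SE), both with GRHL2-ERT in ethanol, for the 34 members by role (vertical axis) at 8 h and 16 h. Filled points were called, and the dashed line marks the median of all tested genes (0.31 and 0.35). Scd2, at 1.75 and 1.92, lies far to the right, and Npc2 lies near -1 in both panels.

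Markers of other cell types moved with the line. The summed primitive endoderm markers (5 of 9 in the table) ran from 25.1 to 32.7 CPM in double-KO and 2.51 to 5.35 CPM in Kmt2c-KO ethanol libraries at 8 h, and from 34.3 to 47.6 against 1.33 to 2.86 CPM at 16 h. Neural markers (4 of 4) summed to between 79.8 and 108 against 21.6 to 32.6 CPM at 8 h, and fibroblast markers (3 of 8) to 3.44 to 4.26 against 0.551 to 2.44 CPM. Naive markers (10 of 10) summed to between 5193 and 5307 CPM in double-KO and between 8323 and 10005 CPM in Kmt2c-KO libraries. Trophoblast markers (4 of 7) were lower in double-KO cells at 8 h, at 62.4 to 77.7 against 84.0 to 119 CPM, and higher at 16 h, at 48.8 to 53.1 against 36.6 to 43.9 CPM. Their part in the differences was not tested, and in these bulk samples fewer cells of a type and less RNA per cell cannot be told apart. The related lists gave counts for the line as well, where 49.4% of all genes were called. At 8 h 11 of 18 other sterol pathway genes were higher and 0 lower, and 5 of 15 efflux, uptake and esterification genes were higher and 3 lower. Apoe, a lipid carrier, fell by 2.89 ± 0.12 on the log2 scale (adjusted p = 1.5e-17). Of 26 other fatty acid and lipid synthesis genes 13 were higher and 1 lower, and of 22 oxidation genes 6 were higher and 3 lower. All stand against a background of 37.6% higher and 11.9% lower. That background holds the upward shift of all genes described above, and the lists were not counted on the median-of-ratios scale.

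Time was compared as well, in 3 comparisons that share no library. From 8 h to 16 h, 7 members were higher and 10 lower in Kmt2c-KO GRHL2-ERT cells in ethanol (45.0% of all genes called, 17.5% higher and 27.5% lower). In double-KO cells in ethanol 3 were higher and 6 lower (21.3% called, 8.72% higher and 12.5% lower). Without GRHL2-ERT in tamoxifen 2 were higher and 10 lower (36.6% called, 10.9% higher and 25.7% lower). In all 3 comparisons 1 member was called higher, Idi1, and 6 lower: Acat2, Mvd, Sqle, Dhcr7, Acaca and Fasn. The share of all genes called alike in all 3 was not computed, so these counts have no background to be read against.

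Idi1, which converts isopentenyl diphosphate to its isomer, read 11.5, 13.8 and 10.5 CPM at 8 h and 88.4, 115 and 77.0 CPM at 16 h in Kmt2c-KO cells in ethanol, at 2.86 ± 0.52, adjusted p = 0.00019. In double-KO cells it read 16.0, 13.9 and 8.66 CPM and 78.9, 84.2 and 74.5 CPM, at 2.57 ± 0.52, adjusted p = 0.0018. Without GRHL2-ERT it read 15.3, 22.3 and 20.6 CPM and 37.0, 109 and 109 CPM, at 1.94 ± 0.52, adjusted p = 0.0066. No 16 h library of these groups reached down to an 8 h library. Acaca fell from 26.2, 25.2 and 24.7 CPM to 8.88, 8.02 and 6.90 CPM in Kmt2c-KO (-1.57 ± 0.16, adjusted p = 4.4e-08), from 28.2, 32.1 and 34.9 CPM to 13.9, 15.1 and 13.6 CPM in double-KO (-1.10 ± 0.16, adjusted p = 4.4e-05), and from 22.7, 27.1 and 19.0 CPM to 8.44, 8.55 and 9.10 CPM without GRHL2-ERT (-1.29 ± 0.16, adjusted p = 1.2e-06). Fasn moved the same way, from 169.8, 154 and 145 CPM to 43.6, 47.9 and 42.4 CPM in Kmt2c-KO (-1.78 ± 0.19, adjusted p = 9.7e-08) and from 116, 92.8 and 87.0 CPM to 54.7, 58.8 and 56.2 CPM in double-KO cells (-0.78 ± 0.19, adjusted p = 0.0058). Without GRHL2-ERT it went from 119, 135 and 114 CPM to 52.4, 52.2 and 56.8 CPM (-1.17 ± 0.19, adjusted p = 4.9e-05). Acly, which makes acetyl-CoA from citrate, was lower at 16 h in 2 of the 3 comparisons, at -0.79 ± 0.11, adjusted p = 1.8e-06 in Kmt2c-KO cells and -0.52 ± 0.11, adjusted p = 0.00044 without GRHL2-ERT, and stood at -0.26 ± 0.11, adjusted p = 0.074 in double-KO cells.

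Sterol genes went both ways with time. Msmo1 rose from 65.4, 66.4 and 60.6 CPM to 95.7, 99.4 and 85.0 CPM in Kmt2c-KO (0.53 ± 0.11, adjusted p = 0.00023) and from 72.4, 67.3 and 75.7 CPM to 103, 104 and 99.9 CPM without GRHL2-ERT (0.51 ± 0.11, adjusted p = 0.00059). Sc5d rose in Kmt2c-KO cells, from 7.32, 9.06 and 5.84 CPM to 14.2, 17.1 and 17.8 CPM (1.06 ± 0.19, adjusted p = 6e-05), and stood at 0.44 ± 0.19 in double-KO and 0.23 ± 0.19 without GRHL2-ERT. On the median-of-ratios scale it was called in double-KO cells too (adjusted p 0.038), and the difference between these comparisons was not tested. Elovl6 rose from 119, 164 and 143 CPM to 220.4, 228 and 222 CPM in Kmt2c-KO (0.66 ± 0.13, adjusted p = 0.00013). Dhcr7 fell from 20.4, 17.1 and 15.6 CPM to 10.4, 9.25 and 9.28 CPM in double-KO (-0.81 ± 0.16, adjusted p = 0.00099) and from 11.2, 10.4 and 13.4 CPM to 5.83, 8.02 and 5.91 CPM without GRHL2-ERT (-0.74 ± 0.16, adjusted p = 0.00081). Acat2 fell from 98.9, 87.9 and 95.6 CPM to 54.8, 58.7 and 64.2 CPM in Kmt2c-KO (-0.66 ± 0.10, adjusted p = 9.6e-06), to 43.9, 42.6 and 49.6 CPM in double-KO (-0.42 ± 0.10, adjusted p = 0.0039) and to 65.7, 65.4 and 61.9 CPM without GRHL2-ERT (-0.54 ± 0.10, adjusted p = 0.00017). Sqle fell from 38.4, 38.9 and 36.3 CPM to 25.5, 30.1 and 28.0 CPM in double-KO (-0.43 ± 0.10, adjusted p = 0.0047) and from 50.9, 52.4 and 46.5 CPM to 33.0, 35.8 and 37.5 CPM without GRHL2-ERT (-0.48 ± 0.10, adjusted p = 0.00079). Ebp rose in double-KO, from 46.1, 69.6 and 53.8 CPM to 85.0, 89.3 and 91.9 CPM (0.66 ± 0.13, adjusted p = 0.00075). Insig2 rose there from 20.6, 19.2 and 18.5 CPM to 29.0, 28.6 and 27.6 CPM (0.53 ± 0.16, adjusted p = 0.02), a call lost without ethanol 8 h replicate 3 (0.073), 16 h replicate 1 (0.061) or 16 h replicate 2 (0.058). Mvd without GRHL2-ERT went from 17.4, 25.6 and 25.6 CPM to 10.4, 10.6 and 13.4 CPM (-0.92 ± 0.26, adjusted p = 0.006). Its double-KO call was lost on the median-of-ratios scale (0.076) and without any 1 library other than 16 h replicate 3 (0.052 to 0.13).

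Other values moved with time as well. Trophoblast markers (4 of 7 in the table) summed to 84.0 to 119 CPM at 8 h and 36.6 to 43.9 CPM at 16 h in Kmt2c-KO ethanol libraries. Rn45s fell by 1.22 on the log2 scale in Kmt2c-KO, by 0.90 in double-KO and by 0.60 without GRHL2-ERT, all called. Their part in the time differences was not tested, and time cannot be told apart from any difference in preparation between the 2 sets of libraries. On the median-of-ratios scale the median of all genes moved from -0.15 to -0.01 for the cells without GRHL2-ERT, and from -0.12 to -0.03 and from -0.06 to -0.01 for the other comparisons. The split of called members then became 5 higher and 9 lower without GRHL2-ERT, 4 higher and 5 lower in double-KO and 7 higher and 9 lower in Kmt2c-KO cells. On that scale all genes split into 17.5% higher and 16.2% lower, 11.4% and 8.22%, and 23.0% and 21.8% in the same order. With array weights 14 members were called in the double-KO comparison, 4 higher and 10 lower, where 35.7% of all genes were called. The call of Fdps, at -0.35 ± 0.11 in Kmt2c-KO and -0.32 ± 0.11 without GRHL2-ERT, was lost on the median-of-ratios scale (0.11 and 0.36).

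**Figure D4:**
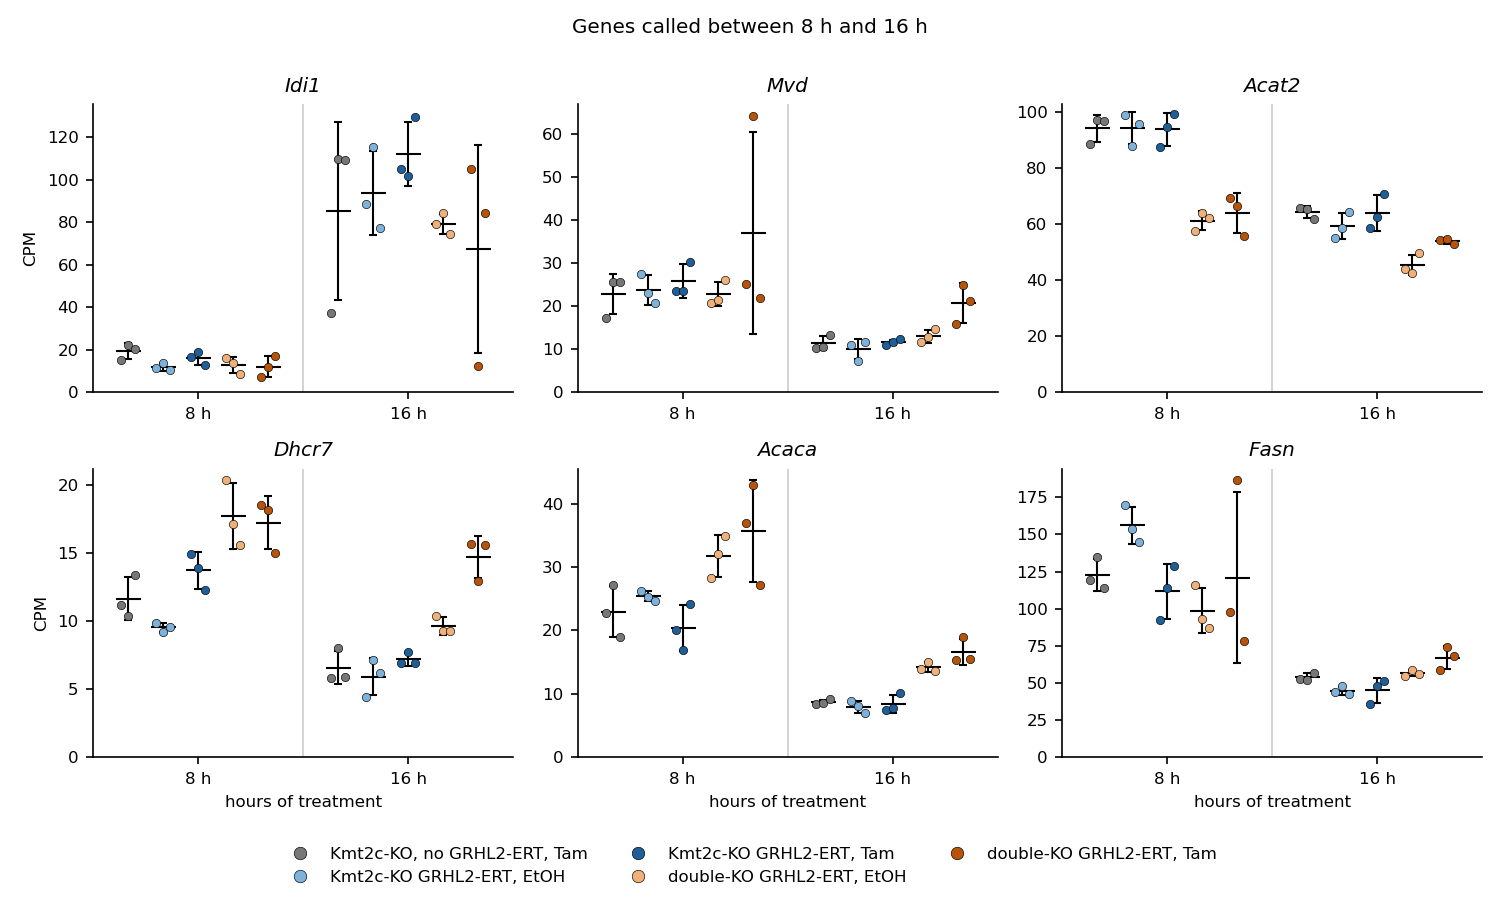
Level in CPM (vertical axis, from 0) of the 6 genes Idi1, Mvd, Acat2, Dhcr7, Acaca and Fasn in every library, by hours of treatment and group. Points are single libraries and bars the mean ± SD of 3. Idi1 lies between 74.5 and 115 CPM in the ethanol libraries at 16 h and at or below 16.0 CPM at 8 h, while Fasn and Acaca are lower at 16 h in each group.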

How the data were processed

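RNA from 30 libraries of mouse embryonic stem cells, 3 in each of 10 groups, was measured by 3′ tag sequencing (QuantSeq 3' FWD kit, per the labels' protocols). The deposited table holds log2 values of CPM (reads scaled to a common library total) plus an offset of 0.124871 for 12428 genes, made by the authors. Salmon, DESeq2 1.34.0 and mm10 appear in the submitters' processing notes with no role given, and the strand setting is not given in the sources used here. CPM was recovered by undoing the log and the offset. The depth of each library was then searched for as the total at which low values lay close to whole reads. At the depth so chosen, 94.6 to 97.6% of low values were whole reads (tolerance 0.05 reads), a share that the search itself favours. The floor of 3 reads covers counting error only. The SE after ± in the text is limma's, from the spread between libraries.

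A gene was tested where any group averaged 1 CPM or more (12414 genes, with 14 removed). Tests used limma 3.58.1 in R 4.3.3 on log2(CPM + 1) with trend and robust variance, all 30 libraries, 20 residual degrees of freedom and 17 two-sided contrasts, with Benjamini-Hochberg adjustment within each contrast over all tested genes. Values in every library are given for members called in a tamoxifen against ethanol contrast, for the 5 regulators and for Hmgcs1, Fasn, Scd1, Scd2 and Ebp, and in other contrasts for up to 8 called members with the smallest adjusted p; from the 4 lists of related genes, up to 4 called genes are named. Values of Mvd and Idi1 in double-KO tamoxifen libraries and of Idi1 without GRHL2-ERT fall outside that rule and were chosen after they were seen. The members and the lists of related genes were chosen with earlier results of these data known. Alternatives were pseudocounts of 0.1 and 5, no filter, a mean of at least 5 CPM over all libraries, median-of-ratios scaling, a replicate block, a fit of each contrast's libraries alone and leaving out each library. Leaving out the 3 libraries that stood apart, and limma's gene-by-gene array weights, were added after seeing the data; the default REML array weights that had been planned did not converge, gave 1 library a weight of 1.59e-05, and were not used. Promoters came from RefSeq on GRCm38.p6. The limma fit was tested on simulated log values for the contrast of tamoxifen against ethanol in Kmt2c-KO cells at 8 h. The other steps had no such test.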

Additional observations from a re-analysis of the deposited data

Results flagged for a closer look

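The tamoxifen response at 8 h differed between the lines for 3 members by the test of the difference itself. The double-KO minus Kmt2c-KO difference in log2 fold change was -0.58 for Msmo1 (limma adjusted p = 0.049), -1.22 for Sc5d (adjusted p = 0.018) and -0.77 for Elovl6 (adjusted p = 0.026). A fit of these libraries alone ended each of the 3 calls, as did leaving out some single libraries. Median-of-ratios scaling (0.07) and a pseudocount of 0.1 (0.052) also ended that of Msmo1, and all 3 were kept with gene-by-gene array weights. In ethanol at 8 h the 3 genes were already called higher in the double-KO line, though Msmo1 not on the median-of-ratios scale. Grhl2 levels also differed between the lines at 8 h. The part of these differences was not tested.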

How the results depend on the processing

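No call changed direction under any alternative run. Of 86 calls of single members, 59 were kept under every alternative, and of 1306 recomputed values 1184 kept their call and 122 lost it. Counts of called members that moved by over 1.5 times were as follows. With the replicate block, 4 members were called for tamoxifen in Kmt2c-KO at 8 h and 1 for the 8 h difference between lines, where the block ended the calls of Elovl6 (adjusted p 0.06) and Msmo1 (0.08). With gene-by-gene array weights, counts were 6 for tamoxifen in Kmt2c-KO at 16 h, 1 in double-KO at 8 h and 5 at 16 h, 5 for the 8 h difference between lines and 1 for the change of the Kmt2c-KO response with time. They were also 7 and 2 for GRHL2-ERT against none at 8 h and 16 h, 1 for tamoxifen without GRHL2-ERT against ethanol at 16 h and 14 for time in double-KO cells. The planned REML array weights did not converge and are not reported. In fits of a contrast's libraries alone, counts were 5 for tamoxifen in Kmt2c-KO at 16 h, 0 for the 8 h difference, 6 and 1 for GRHL2-ERT against none at 8 h and 16 h, and 1 for tamoxifen without GRHL2-ERT at 16 h. Without the libraries that stood apart, counts were 3 for Kmt2c-KO at 16 h (0.532% of all genes called) and 2 for double-KO at 16 h (0.0806%). They were 1 for the change of the Kmt2c-KO response with time (0.411%), 6 and 1 for GRHL2-ERT against none (7.49% and 2.17%), and 1 for tamoxifen without GRHL2-ERT at 8 h (1.41%). The share of all genes called changed with the setting too, as given above for most of these counts. A moved count is therefore no result about the members alone. The cause was not tested.

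Leaving out 1 library at a time gave 3 to 6 calls for tamoxifen in Kmt2c-KO at 8 h, 0 to 7 in double-KO at 8 h, 0 to 14 for the 8 h difference and 1 to 2 for GRHL2-ERT against none at 8 h. The 7 and the 14 both came without double-KO tamoxifen replicate 3, in fits that also called far more of all genes, at the shares given above. The labels' replicate numbers did not pair the libraries: over 12 comparisons of same-numbered libraries the correlation of deviations ran from -0.70 to 0.19, with 1 over 0.1, and 3 of 12 correlated best with their own number. The block moved no other count by over 1.5 times. Depth limits the scarce members most, since 3 reads stand for up to 0.339 CPM and Tm7sf2 was as low as 0.416 CPM.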
